A study of Rattus norvegicus with 27 samples.

Results

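Acta2 encodes smooth muscle alpha actin, the actin isoform of smooth muscle that fibroblasts take up when they turn into contractile myofibroblasts. Its row in the count table is 1 Ensembl rat gene ID, ENSRNOG00000058039, of 32753 IDs in all and 14258 that passed the filter on low counts and were tested. The files pair no ID with a name, and the name Acta2 was given with the ID when the gene was chosen and could not be checked against the files. The libraries are RNA-seq of lung fibroblasts in primary culture from Sprague-Dawley rats. The stock is outbred, and the cells were sorted with magnetic beads against CD90, a surface protein of fibroblasts, and grown in MucilAir medium. The cells lay on PDMS, a silicone elastomer of 3 to 5 kPa per the labels, or on plastic, for which no stiffness is given, and both surfaces carried rat tail collagen I. The 27 libraries form 7 groups, with 4 libraries each at PDMS days 2, 4, 7 and 14 and at Plastic days 4 and 14, and 3 at Plastic day 7. The names of the count columns mark all 27 libraries alike as WT, a genotype, and as MonoCulture, and name no agent. The age of the animals and the animal or culture behind each library are not stated in the labels. Each p-value is thus set against the variation from library to library, which can be partly technical.

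In a resting fibroblast smooth muscle alpha actin is scarce. Transforming growth factor beta and mechanical tension raise its transcription, largely through serum response factor (SRF) and its actin-sensing partners of the MRTF family, and the protein is then built into stress fibres that let the cell pull on its matrix. In the lung the gene is the usual marker of myofibroblasts in wound repair and fibrosis, and it is also expressed by airway and vascular smooth muscle and by pericytes. Culture on stiff plastic is widely known to favour it and soft substrates to hold it down. The comparison here is of PDMS with plastic, which differ in material too. An effect of stiffness therefore cannot be told apart from one of the material.

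The gene's immediate upstream stretch is shown because it is the part through which SRF is known to act on it. In the GRCr8 assembly RefSeq places Acta2 on chromosome 1 from 241159723 to 241172503 on the minus strand. The 250 bases before the start, chr1:241172504-241172753 on the minus strand, are given 5′ to 3′ from RefSeq's GRCr8 sequence.
Acta2 promoter: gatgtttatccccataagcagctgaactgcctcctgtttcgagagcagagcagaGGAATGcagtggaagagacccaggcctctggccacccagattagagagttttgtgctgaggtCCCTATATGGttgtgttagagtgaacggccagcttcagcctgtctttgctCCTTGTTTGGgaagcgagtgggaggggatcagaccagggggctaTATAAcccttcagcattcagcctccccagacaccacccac
The capitals mark, in order, GGAATG, a pair of near matches to the CArG box, and TATAA. A CArG box, the SRF element, was searched on both strands as CC and GG around 6 core bases. The pair are CCCTATATGG at 134 to 125 bases before the start and CCTTGTTTGG at 84 to 75 bases before it. Each has 1 core base that is not A or T. In the same window 6.84% of 33469 rat promoters hold at least 1 such match, and the share that holds a pair was not computed. No box with all core bases A or T was found in the Acta2 window, and 1.5% of promoters hold one. GGAATG, a core read by TEAD factors, lay 196 to 191 bases before the start and was present in 12.1% of promoters, and TATAA lay at 40 to 36 bases and was present in 24%. None of these marked matches overlap. They describe the letters only, since no binding was measured.

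Over all genes some libraries stood apart from the rest of their groups, and 3 of them are followed here, picked without a fixed threshold. PDMS day 4 replicate 2 correlated with the other 3 libraries at r = 0.938 to 0.950 in log2 CPM, against 0.980 to 0.988 among those 3. Plastic day 4 replicate 3 correlated with the other 3 libraries at 0.881 to 0.955, and Plastic day 14 replicate 4 at 0.933 to 0.936. Plastic day 4 replicate 4 was at 0.954 to 0.955, against 0.994 between replicates 1 and 2. At PDMS day 2 all pairs were looser, from 0.914 to 0.972, with replicate 2 at 0.932 to 0.936 and replicate 4 at 0.914 to 0.946. The edgeR log2 fold change of Acta2 on PDMS minus plastic at day 4 was -0.18 without PDMS day 4 replicate 2 and -0.76 without Plastic day 4 replicate 3, against -0.58 with all libraries. At day 14 it was -0.97 without Plastic day 14 replicate 4, against -0.89 with all.

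Across the libraries Acta2 varied 493-fold between the lowest and the highest, and the 27 libraries held 17.3 to 25.3 M counts each (M, mega). It held 110 counts in PDMS day 2 replicate 2 and 48625 in Plastic day 7 replicate 1, or 0.000636% and 0.232% of the reads. Levels are given in CPM, counts per M of the library size scaled by TMM, and compare this 1 gene between libraries. Counting error was small beside these differences. The lowest library stood at 5.37 CPM with an exact Poisson 95% interval of 4.42 to 6.48, which covers counting error only.

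At day 2 the PDMS libraries stood at 29.8, 5.37, 195 and 112 CPM, a mean of 85.7 ± 86.2 (SD, n = 4). At day 4 they stood at 844, 29.4, 846 and 409.6 CPM, a mean of 532 ± 393 (n = 4), against 426, 516, 467 and 1769 CPM on plastic, a mean of 795 ± 651 (n = 4). Replicate 2 on PDMS was far below every other day 4 library, and replicate 4 on plastic far above. At day 7 PDMS gave 49.1, 95.9, 329 and 132 CPM, a mean of 152 ± 123 (n = 4), against 2648, 621 and 656 CPM on plastic, a mean of 1308 ± 1161 (n = 3). These groups did not overlap, with 329 CPM in the highest PDMS library and 621 CPM in the lowest plastic library.

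At day 14 the PDMS libraries were at 286, 1150.2, 129.9 and 24 CPM, a mean of 398 ± 513 (n = 4), against 559, 954, 822 and 607 CPM on plastic, a mean of 735 ± 185 (n = 4). PDMS replicate 2 was above all 4 plastic libraries and the other 3 PDMS libraries were below them all. Over days 4, 7 and 14 together, 9 of the 12 PDMS libraries were below the lowest of the 11 plastic libraries, 3 were within the plastic range and 0 above it. In bulk RNA a culture with fewer myofibroblasts and one with less Acta2 mRNA per cell cannot be told apart. The count method is not stated in the labels, and the coding sequences of the actin genes are closely alike, so reads of other actins may have been shared with this row.

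**Figure D1:**
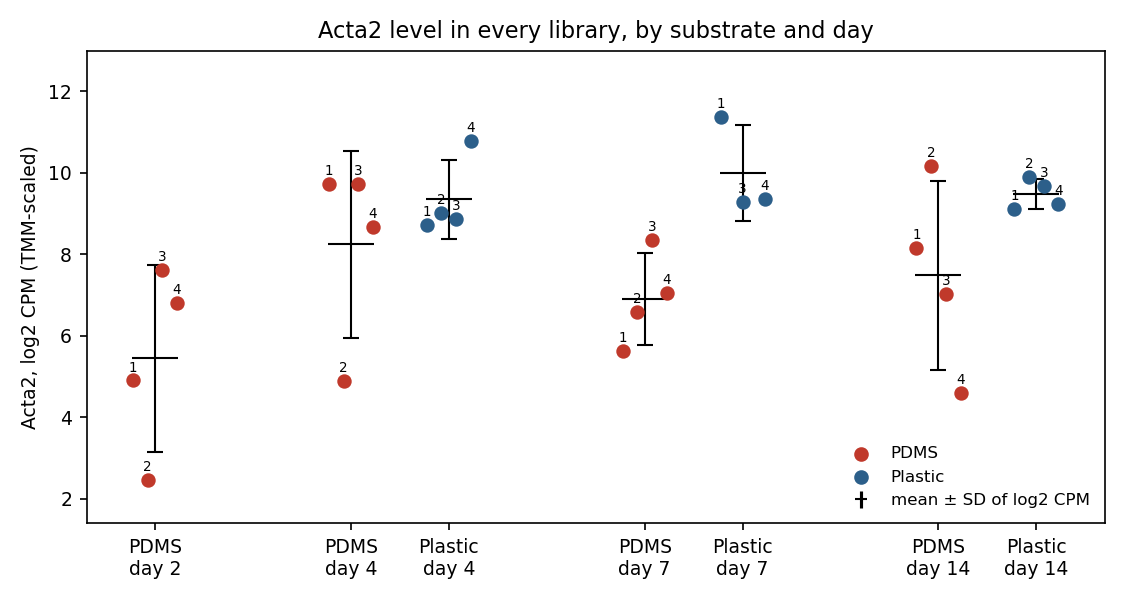
Acta2 level in log2 CPM (vertical axis) in each of the 27 libraries by substrate and day, PDMS in red and plastic in blue, with the replicate number over each point and the mean ± SD of each group as black bars. At day 7 the 4 PDMS libraries (49.1 to 329 CPM) lie below all 3 plastic libraries (621 to 2648 CPM), while on the other shared days the groups overlap.

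In 6 of the 7 groups the libraries disagreed on Acta2 far more than on a typical gene. Plastic day 14 was the exception. On PDMS the SD of log2 CPM within a group took the values 2.30 (day 2), 2.30 (day 4), 1.14 (day 7) and 2.33 (day 14). On plastic it took the values 0.97 (day 4), 1.19 (day 7) and 0.36 (day 14). The highest PDMS library exceeded the lowest 36.3-fold (day 2), 28.7-fold (day 4), 6.71-fold (day 7) and 47.9-fold (day 14), and on plastic this ratio took the values 4.16 (day 4), 4.27 (day 7) and 1.71 (day 14). The lowest ratio was that of Plastic day 14, set by its replicates 2 (954 CPM) and 1 (559 CPM). That group holds a pair of closely alike libraries (replicates 2 and 3), which may not be separate cultures. Plastic day 4, with a ratio of 4.16, also holds such a pair (replicates 1 and 2). Whether these pairs bear on the spread was not tested.

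Set among the 10510 genes with a mean of at least 5 CPM, whose median SD was 0.18 to 0.33 in the 7 groups, the SD of Acta2 exceeded that of 99.6% of genes at PDMS day 2, 99.7% at day 4, 99.1% at day 7 and 99.4% at day 14. On plastic it exceeded 90.4% of genes at day 4, 95.5% at day 7 and 71.4% at day 14. The difference in spread between the substrates was not tested. In the model of all 27 libraries the biological coefficient of variation of Acta2, the relative spread left between replicates, was 0.91 against a median of 0.24 over the genes tested.

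**Figure D2:**
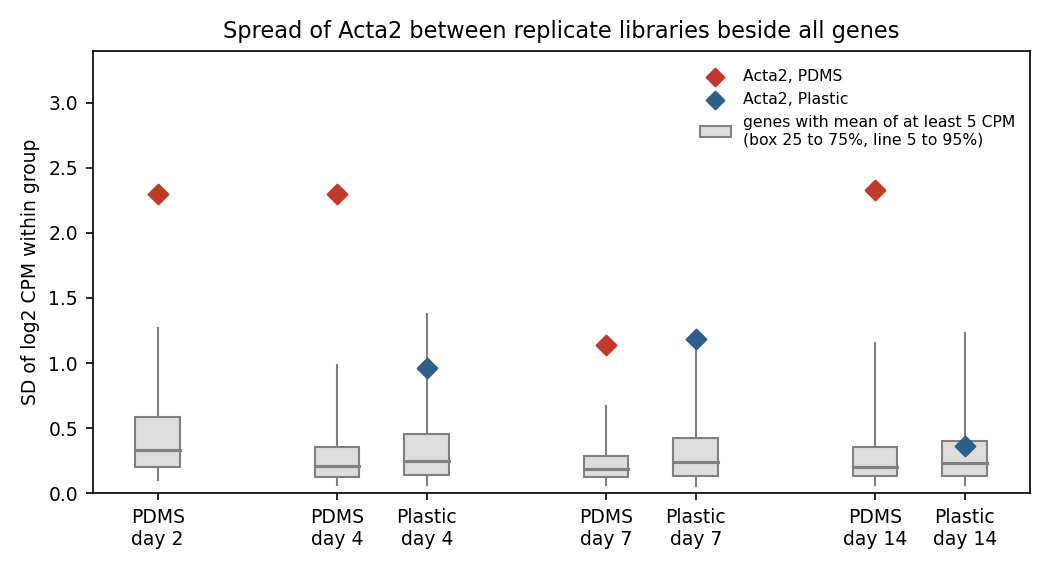
SD of log2 CPM between the libraries of each group (vertical axis), for Acta2 as diamonds (PDMS red, plastic blue) and for the 10510 genes with a mean of at least 5 CPM as grey boxes from the 25th to the 75th percentile with lines from the 5th to the 95th. Acta2 lies above the grey lines in all 4 PDMS groups and at Plastic day 7, on the line at Plastic day 4 and within the box at Plastic day 14.

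The substrates differed most in fitted level at day 7. The fold change in the edgeR quasi-likelihood fit, which compares group means of counts, was a log2 value of -3.11 ± 1.12 for PDMS minus plastic (SE; 95% interval -5.43 to -0.79; n = 4 and 3), or 8.63-fold lower on PDMS. Its p was 0.0109 unadjusted and 0.142 after Benjamini-Hochberg adjustment over all genes in edgeR, so it did not pass at 0.05. In that comparison 0.849% of genes were called in either direction, 0.701% were called lower on PDMS, and 17.8% had an unadjusted p under 0.05. Like Acta2, 18.3% of genes showed no overlap between the substrates at day 7, against 4.15% at day 4 and 5.90% at day 14, where Acta2 overlapped. A change larger in size was fitted for 1.49% of genes. On the log2 CPM scale, where each library weighs the same, the means were 6.90 on PDMS and 10.00 on plastic, a difference of -3.10 (two-sided exact permutation p = 0.0571, 0.343 after adjustment over 12 tests; the smallest p these group sizes allow is 0.0286).

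DESeq2 gave a close estimate at day 7, -3.13 ± 1.0, with an adjusted p of 0.0408, in a test that called 5.12% of genes. The edgeR value was -2.07 without Plastic day 7 replicate 1, which held the highest level of the series, with an adjusted p of 0.58, and it was between -3.83 and -2.07 whichever library was left out. All 7 of these values were below 0. The TMM factors were 0.99 to 1.05 on PDMS and 0.88 to 0.995 on plastic at day 7, and at day 14 they were 0.96 to 0.99 on PDMS and 0.88 to 0.93 on plastic. Scaling by library size instead gave -2.96 at day 7, while moving the median of all genes from 0.01 to 0.13.

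At day 4 and at day 14 no difference between the substrates was detectable beyond the spread between libraries. The edgeR log2 fold change was -0.58 ± 1.0 at day 4 (95% interval -2.65 to 1.50; adjusted p = 0.99; n = 4 and 4) and -0.89 ± 1.01 at day 14 (95% interval -2.97 to 1.20; adjusted p = 0.857; n = 4 and 4). Both intervals include 0, and both overlap the interval at day 7 (-5.43 to -0.79). With edgeR 0% of genes were called on either day, and 8.74% and 8.88% had an unadjusted p under 0.05. DESeq2 and limma-voom did not call Acta2 at either day (lowest adjusted p = 0.677, limma-voom at day 14).

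On the log2 CPM scale the differences were larger, -1.10 at day 4 (means 8.25 on PDMS and 9.35 for plastic; exact permutation p = 0.486, adjusted 0.686) and -2.0 at day 14 (means 7.49 on PDMS and 9.49 for plastic; exact permutation p = 0.143, adjusted 0.429). A group mean of counts gives most weight to its highest library, and a mean of log2 CPM weighs all libraries alike. The edgeR value at day 14 was -2.33 without PDMS day 14 replicate 2 (adjusted p = 0.484) and -0.49 without PDMS day 14 replicate 4. At day 4 it was 0.18 without Plastic day 4 replicate 4 (adjusted p = 0.998), and -0.88 and -0.89 without PDMS day 4 replicates 1 and 3.

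**Figure D3:**
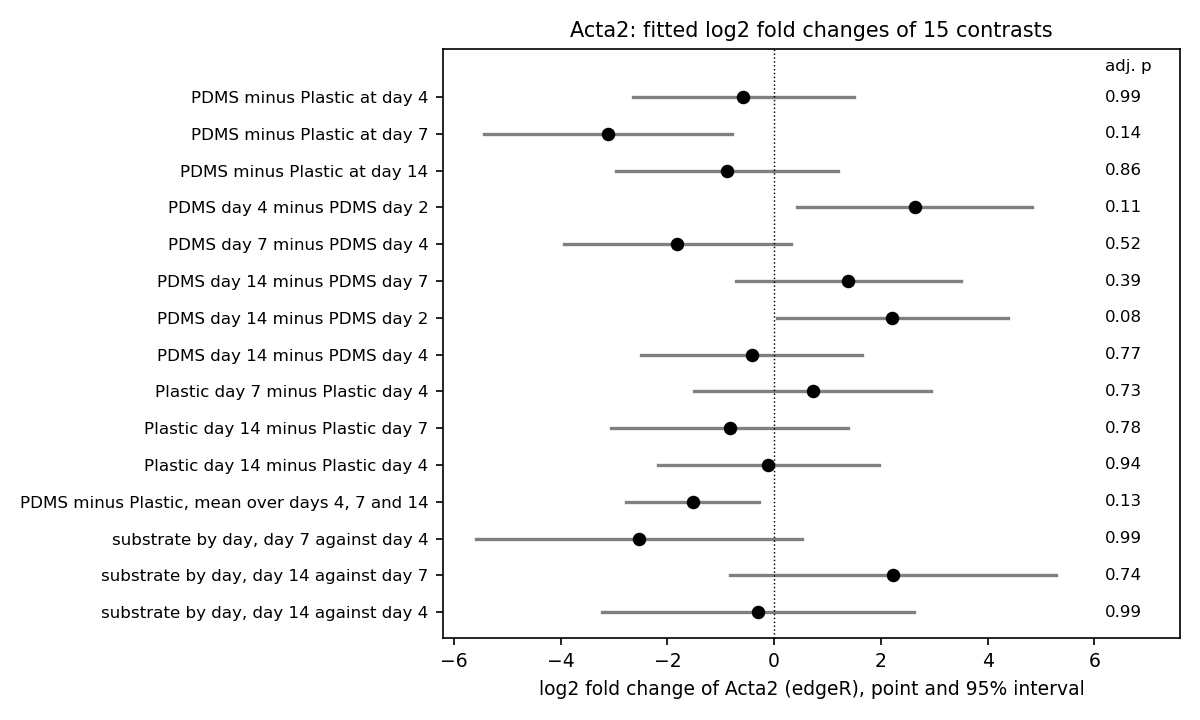
Fitted log2 fold change of Acta2 (horizontal axis) for 15 contrasts in edgeR, with 95% intervals as grey lines and the p adjusted over all genes at the right; substrate by day is the substrate difference at the first day minus that at the second. The interval lies wholly below 0 at day 7 and for the mean of the days and wholly above 0 for PDMS day 4 and day 14 against day 2, and no adjusted p is under 0.05.

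Taken over days 4, 7 and 14, the mean log2 CPM of Acta2 was lower on PDMS, at 7.55 against 9.61 on plastic (n = 12 and 11), a difference of -2.07. Permuting the substrate labels within days gave a two-sided exact permutation p of 0.00389 over 171500 assignments, or 0.0467 after Benjamini-Hochberg adjustment over the 12 tests of this kind. These 12 tests are all of Acta2, and the share of all genes that pass such a test was not computed. Scaled by library size alone, the difference was -1.97 (exact permutation p = 0.0051, adjusted 0.0612), which did not pass. Each of the 23 values without 1 library was also below 0, from -2.36 to -1.69, with an unadjusted exact permutation p of 0.00056 to 0.0102. The adjusted p stayed under 0.05 in 3 of the 23 and reached 0.122 without Plastic day 4 replicate 4. In edgeR the mean substrate difference was -1.53 ± 0.60 (SE; 95% interval -2.77 to -0.28), with an unadjusted p of 0.0184 and an adjusted p of 0.132 over all genes. There 7.04% of genes were called, 5.41% were called lower on PDMS, and 21.7% had an unadjusted p under 0.05. Of the 23 edgeR fits without 1 library it was called in 1, without PDMS day 14 replicate 2, at -2.0 (adjusted p = 0.0368), in a fit that called 8.49% of genes.

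The replicates were counted as separate libraries. Plastic day 4 replicates 1 and 2 and Plastic day 14 replicates 2 and 3 were much closer to each other than other pairs, with a chi-square per degree of freedom of 7.74 and 8.14 against at least 32.1 for every other pair of 1 group, though still above the 1 of sampling noise. With each of these pairs summed into 1 library, the exact permutation test of the mean substrate difference gave -2.09 with p = 0.00809, or 0.0971 adjusted.

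**Figure D4:**
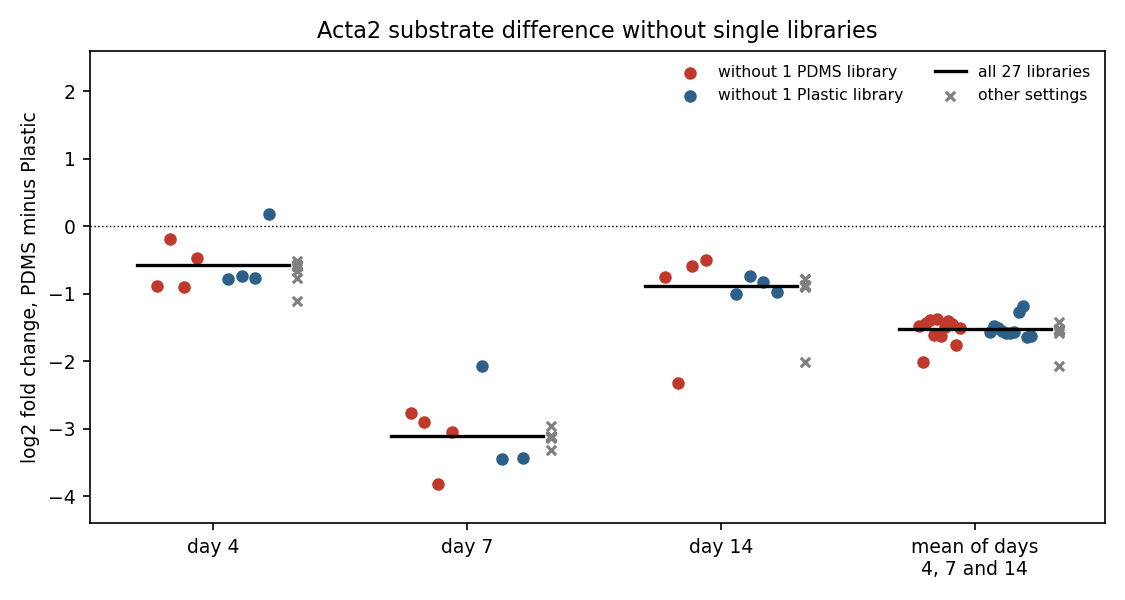
Log2 fold change of Acta2 on PDMS minus plastic in edgeR (vertical axis) at days 4, 7 and 14 and for their mean, with all libraries as black lines, without single PDMS (red) or plastic (blue) libraries as points, and under the other settings as grey crosses. Day 7 stays at -2.07 or lower, while day 4 spans 0 and day 14 moves to -2.33 without PDMS replicate 2.

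Whether the substrate difference depended on the day could not be settled at this spread. The substrate difference at day 7 minus that at day 4 was -2.53 ± 1.48 in edgeR (95% interval -5.59 to 0.53; adjusted p = 0.994), and that at day 14 minus day 7 was 2.22 ± 1.47 (95% interval -0.83 to 5.27; adjusted p = 0.743). That at day 14 minus day 4 was -0.31 ± 1.41 (95% interval -3.23 to 2.62; adjusted p = 0.986). Without Plastic day 7 replicate 1 the first was -1.49 and the second 1.19, and without PDMS day 14 replicate 2 the second was 0.78. The third, near 0, ran from -1.75 to 0.08 whichever library was left out. In these contrasts 0% of all genes were called. Their unadjusted p was under 0.05 for 2.94%, 6.87% and 6.81% of genes, in the same order. DESeq2 and limma-voom did not call Acta2 in any of the 3.

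On PDMS the mean level of Acta2 was lowest at day 2. The edgeR log2 fold change was 2.63 ± 1.06 for day 4 against day 2 (6.21-fold; 95% interval 0.43 to 4.83; adjusted p = 0.107), with an unadjusted p of 0.0211 where 28.0% of genes were under 0.05, 10.0% were called and 5.17% were called higher. It was 2.21 ± 1.04 for day 14 against day 2 (4.64-fold; 95% interval 0.05 to 4.38; adjusted p = 0.0804), with an unadjusted p of 0.0454 where 57.4% of genes were under 0.05, 51.6% were called and 24.3% were called higher. Both contrasts use the same PDMS day 2 libraries. DESeq2 put Acta2 past the threshold in each, with adjusted p of 0.0385 and 0.04, in tests that called 15.7% and 47.7% of genes. On log2 CPM the differences were 2.81 and 2.04, with two-sided exact permutation p of 0.143 and 0.257 (adjusted 0.429 and 0.617). The same-numbered libraries of days 4 and 2 met the criterion for a pairing, and Acta2 was higher at day 4 in 4 of 4 pairs, by 1.86 to 4.82 in log2 CPM. Exact sign flips of the pairs gave a two-sided p of 0.125, the smallest that 4 pairs allow, so this test could not pass at 0.05. The share of all genes that ran 1 way in all 4 pairs was not computed, and the labels do not say what the numbers mark.

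The fold of day 14 against day 2 leaned on single libraries. It was called in edgeR without PDMS day 2 replicate 3 (3.05, adjusted p = 0.0398, with 48% of genes called) and without PDMS day 14 replicate 4 (2.61, adjusted p = 0.0398, with 47.9% of genes called). Without PDMS day 14 replicate 2 it was 0.78 (adjusted p = 0.54). The day 4 fold lay between 2.21 and 3.43 whichever of its 8 libraries was left out, and none of these passed the adjusted threshold (lowest adjusted p = 0.0598).

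After day 4 no step on PDMS passed, and the point estimates did not run in 1 direction. Day 7 minus day 4 was -1.81 ± 1.03 (edgeR adjusted p = 0.523, with 0.147% of genes called), day 14 minus day 7 was 1.39 ± 1.02 (adjusted p = 0.388, with 5.53% called), and day 14 minus day 4 was -0.42 ± 1.0 (adjusted p = 0.772, with 28.6% called). Without PDMS day 14 replicate 2 the step from day 7 to day 14 was -0.05 and that from day 4 to day 14 was -1.86.

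On plastic Acta2 showed no detectable course from day 4 to day 14. The edgeR log2 fold change was 0.72 ± 1.07 for day 7 minus day 4 (adjusted p = 0.732, with 0% of genes called and 18.7% at an unadjusted p under 0.05), -0.83 ± 1.07 for day 14 minus day 7 (adjusted p = 0.779, with 0.0842% called) and -0.11 ± 1.0 for day 14 minus day 4 (95% interval -2.18 to 1.96; adjusted p = 0.944, with 32.6% called). The last of these is set beside a contrast in which many other genes moved. The first and second turned to -0.32 and 0.20 without Plastic day 7 replicate 1, and the last to 0.65 without Plastic day 4 replicate 4.

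Ordered by mean log2 CPM the groups ran from Plastic day 7 (10.00 ± 1.19, SD, n = 3) through Plastic day 14 (9.49 ± 0.36, n = 4), Plastic day 4 (9.35 ± 0.97, n = 4), PDMS day 4 (8.25 ± 2.30, n = 4), PDMS day 14 (7.49 ± 2.33, n = 4) and PDMS day 7 (6.90 ± 1.14, n = 4) to PDMS day 2 (5.44 ± 2.30, n = 4). The 3 plastic groups held the top places. All 6 pairs of neighbours in this order overlapped, with two-sided exact permutation p of 0.343 to 0.8, each 0.8 after adjustment over the 6 pairs. A single test for any difference among the 7 groups gave F = 2.97 on 6 degrees of freedom, with an edgeR p of 0.0276 and an adjusted p of 0.0486, in a test that called 57.2% of all genes. With the replicate number as a block the adjusted p was 0.0786 (F = 2.62), and 8 of the 27 fits without 1 library kept the call.

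In log2 CPM, Acta2 stood apart from most of the 14258 genes tested in its shares of variance for substrate and day. Over the 23 libraries of days 4, 7 and 14, substrate beside day took 33.1% of the variance of its log2 CPM, day 1.75%, their interaction 5.27% and replicates 59.9%. The median gene gave 4.22% to substrate, 28.7% to day, 5.50% to the interaction and 52.8% to replicates. The substrate share of Acta2 was above that of 96.5% of genes and its day share above that of 3.46%. These shares are descriptions and contain part of the spread between replicates.

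Some other genes ran close to Acta2 across libraries. Likeness was measured as Pearson's r of log2 CPM over the 27 libraries, which share scaling, substrates and days, among 10509 other genes with a mean of at least 5 CPM. Of these, 54 had r of at least 0.8 and 24 had r of -0.8 or lower. After taking out the group means, which leaves the differences between replicates, 33 genes had r of at least 0.8 and 28 had r of -0.8 or lower, and 23 genes were at 0.8 or more by both measures. The like counts for other genes were not computed, so these counts do not set Acta2 apart. The files and the reference table name none of the genes, so only the 2 most alike and the 2 most opposite are given, by ID.

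ENSRNOG00000012512 was the most alike, with r = 0.94 over the libraries (Spearman's rho 0.90), 0.93 within groups and 0.96 over the 7 group means. It ranged from 4.20 to 96.0 CPM. At day 7 it had a mean of 27.9 ± 7.18 CPM on PDMS (SD, n = 4) and 56.9 ± 33.98 on plastic (n = 3), with an edgeR log2 fold change of -1.03 ± 0.49 (adjusted p = 0.273). Its mean substrate difference over days 4, 7 and 14 was -0.73 ± 0.27 (edgeR adjusted p = 0.104). ENSRNOG00000024503 followed with r = 0.94 (rho 0.87), 0.91 within groups and 0.97 over group means. It ranged from 32.9 to 239 CPM and stood at 82.6 ± 8.64 CPM on PDMS and 189.9 ± 43.6 on plastic at day 7, with a log2 fold change of -1.20 ± 0.33 (edgeR adjusted p = 0.0678). Its mean substrate difference was -0.71 ± 0.18 (edgeR adjusted p = 0.0216).

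ENSRNOG00000004284 ran most opposite to Acta2, with r = -0.90 over the libraries (rho -0.81), -0.87 within groups and -0.94 over group means. At day 7 it stood at 102.8 ± 22.4 CPM on PDMS and 71.6 ± 7.93 on plastic, with a log2 fold change of 0.52 ± 0.33 (edgeR adjusted p = 0.418), and a mean substrate difference of 0.49 ± 0.18 (edgeR adjusted p = 0.102). ENSRNOG00000030683 had r = -0.87 (rho -0.78), -0.81 within groups and -0.93 over group means, and ranged from 55.1 to 119 CPM. Its mean substrate difference was 0.32 ± 0.10 (edgeR adjusted p = 0.0552). All 4 IDs were picked for their likeness to Acta2 in these libraries, so their directions are no separate evidence.

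**Figure D5:**
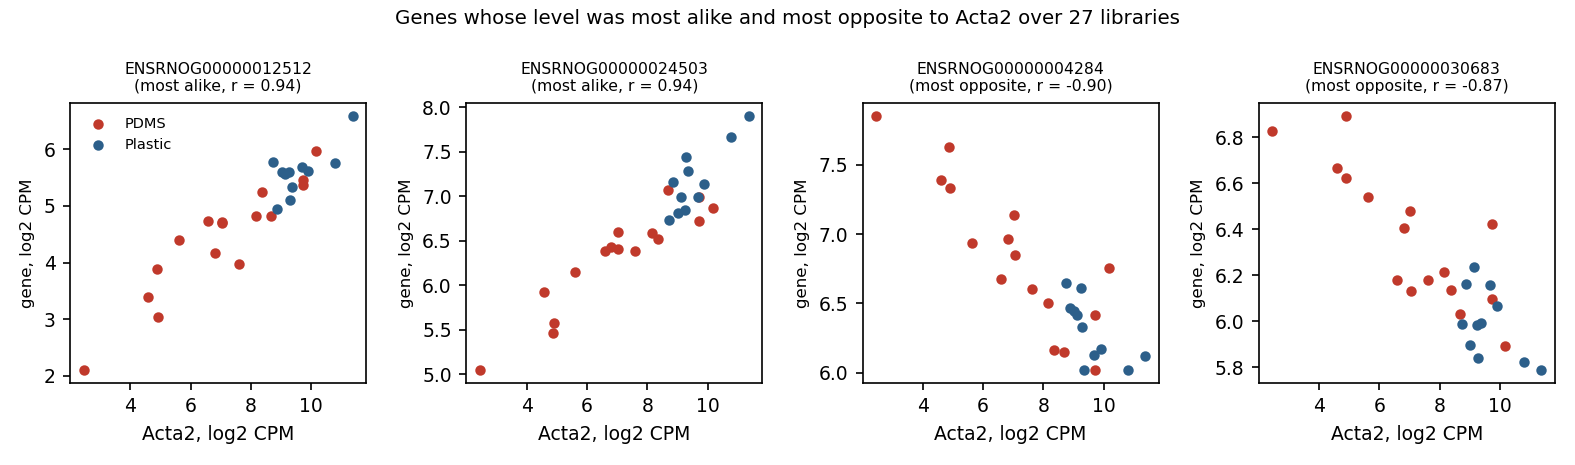
Log2 CPM of 4 genes (vertical axes) against log2 CPM of Acta2 (horizontal axis) in the 27 libraries, PDMS in red and plastic in blue, for the 2 IDs most alike and the 2 most opposite by Pearson's r. PDMS libraries fill the low end of Acta2, and r was not computed for each substrate apart.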

How the data were processed

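The deposited values are raw whole-number counts for each Ensembl gene ID and library. According to the design text and the submitters' processing notes, FastQC 0.11.2, bamUtil 1.0.11, dupRadar 1.4 and Cufflinks 2.2.1 were used, and STAR and DESeq2 are also named. The counter, strandedness, build and annotation are not given in the sources here. The count table also holds 1 column outside the listed samples, which stayed out.

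The analysis ran in edgeR 4.0.16 under R 4.3.3. Its filterByExpr filter, at a minimum count of 10, left 14258 genes with 99.9% of the reads. The quasi-likelihood model had 1 mean per group over all 27 libraries, with 20 residual degrees of freedom and TMM scaling. P-values were adjusted by Benjamini-Hochberg over all genes tested. A standard error is the log2 fold change divided by the root of F. Log2 CPM carries a prior count of 2, and exact permutation tests used it. limma 3.58.1, DESeq2 1.42.0, other scalings, no filter, a replicate block, summed pairs and single libraries left out were alternatives.

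Acta2 and the gene lists were chosen with earlier results of these data known. The lists of contractile, SRF, TGF-beta, matrix and cell type marker genes are symbols, and none of the IDs could be matched to the RefSeq table (0 of 32753), so they were not run and the labelled cell type was not checked by markers. Named genes are Acta2 and, with no symbols to hand, the 2 IDs with the highest and the 2 with the lowest r to it. Labels give replicate numbers without saying what they mark. Deviations of same-numbered libraries correlated at 0.14 to 0.57 for PDMS day 4 and day 2, which meets the criterion for a pairing (over 0.1 in every pair), and at least 1 pair was below it in each of the other 10 two-group comparisons.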

Additional observations from a re-analysis of the deposited data

Results flagged for a closer look

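Acta2 and the 4 named IDs gave 30 groups of 4 libraries, 6 groups each. In 3 of the 30, by CPM, a library's gap to its nearest neighbour took most of the range by Dixon's 95% criterion. About 1.5 would be expected by chance for independent groups with normal values. The groups are not independent, since the 4 IDs were picked for their r with Acta2. The 3 cannot be set against 1.5. Plastic day 4 replicate 4 held 1769 CPM of Acta2, against 426 to 516 CPM in the other 3 libraries. PDMS day 4 replicate 2, the lowest of its group for Acta2, held 198 CPM of ENSRNOG00000004284, against 64.7 to 85.4 CPM in the others. PDMS day 7 replicate 1, also the lowest of its group for Acta2, held 92.9 CPM of ENSRNOG00000030683, against 70.0 to 72.3 CPM in the others. Both IDs were picked as running opposite to Acta2, so a high value where Acta2 is lowest is no separate evidence.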

How the results depend on the processing

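Over the settings other than leaving out a library, 171 of 181 values were counted as the same as in the main setting. For a contrast this means the same direction and side of the threshold, and for the test among all 7 groups the same side. For the mean CPM of a group it means a move of less than its SD. DESeq2 called 3 contrasts that edgeR did not, day 7 on PDMS minus plastic (-3.13), PDMS day 4 minus day 2 (2.59) and PDMS day 14 minus day 2 (2.19). With limma-voom Plastic day 14 minus day 4 was 0.13, on the other side of 0. The test among all 7 groups lost its call with library size (F = 2.87), without the filter (3.06), with the replicate block (2.62) and with alike pairs summed (2.76). The exact permutation test of the mean substrate difference missed the adjusted threshold with alike pairs summed (-2.09) and with library size (-1.97, adjusted p = 0.0612), settings added after seeing the data. The cause was not tested. The replicate block changed no other call, and the day 7 substrate value with it was -3.31 (adjusted p = 0.181).

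Without single libraries the edgeR values ran from -0.89 to 0.18 for the substrates at day 4, from -2.33 to -0.49 at day 14, from -3.29 to -1.49 for the substrate difference at day 7 minus day 4, from 0.78 to 2.94 for that at day 14 minus day 7, from -0.047 to 2.11 for PDMS day 14 minus day 7, from 0.78 to 3.05 for PDMS day 14 minus day 2, from -0.32 to 1.48 for Plastic day 7 minus day 4, from -1.17 to 0.20 for Plastic day 14 minus day 7, from -0.27 to 0.65 for Plastic day 14 minus day 4, from -2.0 to -1.18 for the mean substrate difference and from -1.75 to 0.084 for the substrate difference at day 14 minus day 4. The F among all groups ran from 2.38 to 4.09, and the exact mean difference from -2.36 to -1.69. With 110 or more counts in every library, the spread between replicates and not depth limits these comparisons.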

Other observations

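No replicate number was high or low for Acta2 throughout. Replicate 2 gave the lowest PDMS level at day 2 (5.37 CPM) and day 4 (29.4 CPM) and the highest at day 14 (1150.2 CPM). Against their group means in log2 CPM, 3 of 7 libraries numbered 1 were above, 2 of 6 numbered 2, 4 of 7 numbered 3 and 4 of 7 numbered 4.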
